A study of Mus musculus with 6 samples.

Results

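Nr4a1, Nr4a2, Nr4a3, Ier2, Ier3, Ier5, Btg2, Zfp36 and Srf are 9 genes best known as rapid-response genes, chosen by name from a table of 43074 gene symbols. All 9 had a row in the table, and all 9 passed the filter on low counts that left 17433 genes for testing. The table holds RNA sequencing counts from C2C12, a mouse myoblast cell line with the genotype given as WT, whose cells withdraw from the cell cycle and fuse into myotubes when the serum is changed. The day 0 group was untreated cells, taken as the baseline in growth medium with fetal bovine serum. The other groups had spent 4 days in differentiation medium with horse serum, and received either DMSO or 4-PBA (4-phenylbutyric acid) at 1 mM, which inhibits histone deacetylases and can act as a chemical chaperone. Each group had 2 libraries. Growth medium and day 0 go together in this design, so the change of medium and the days in culture cannot be told apart.

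Rapid-response (immediate-early) genes are transcribed within minutes of serum, growth factors or stress, with no need for new protein synthesis, and most of their mRNAs are short-lived. Srf encodes serum response factor, which binds CArG boxes and drives both serum-induced genes and muscle and cytoskeletal genes. The 3 Nr4a genes encode orphan nuclear receptors that are controlled mainly by how much of them is made. Zfp36 encodes tristetraprolin, which binds AU-rich elements in mRNAs and recruits the CCR4-NOT deadenylase, and Btg2 encodes an antiproliferative protein that binds the same deadenylase. Ier3 is known as a regulator of cell survival, Ier5 as a regulator of heat shock factor through a protein phosphatase, and Ier2 as a nuclear protein induced by growth factors.

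Total counts ranged from 47908926 to 74697397 per library. The labelled cell type was checked against markers. The 6 myotube markers (Myog, Mymk, Myh3, Ckm, Tnnt1, Acta1) summed to between 83.5 and 88.2 CPM in the day 0 libraries and to between 4509 and 4871 CPM in the day 4 libraries, where CPM is the count scaled to library size after TMM normalisation. The 4 myoblast markers (Myod1, Myf5, Des, Pax7) summed to between 1023 and 1034 CPM in the day 0 group, 2338 and 2361 in the DMSO group and 2181 and 2195 in the 4-PBA group. Within that list Myf5 fell with DMSO (log2 fold change -1.14, SE 0.0572) while Myod1 (0.22, SE 0.038), Des (1.33), also an Srf target, and Pax7 (1.80, SE 0.345), at no more than 1.40 CPM, rose. All 4 leukocyte, both endothelial and all 3 adipocyte markers together stayed low: their sums were at most 6.11, 0.576 and 0.391 CPM in any library, Ptprc, the pan-leukocyte marker, reached at most 0.0617 CPM, Cd68 alone of the 4 leukocyte markers exceeded 1 CPM, and Fabp4 was at 0 in every day 4 library. In these bulk libraries fewer cells that express a gene and less of its RNA per cell cannot be told apart, and nothing in the labels says whether replicates were separate cultures. The p-values therefore measure only the spread between these libraries, which may be technical. For each gene that spread was estimated in part from other genes.

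RefSeq promoter windows (GRCm38.p6, from 250 bases before to 50 bases after the annotated start) were given for 8 of the 9 genes. The windows below belong to the only one of the 8 genes with a palindromic CRE (Btg2), to a pair of paralogs that moved in opposite directions (Nr4a1 and Nr4a2), and to the gene for the factor that binds CArG boxes (Srf, with a 30-base stretch of the Zfp36 window for comparison). Capitals mark matches, on either strand, to the CRE core TGACG, the palindromic CRE TGACGTCA that contains it, the CArG box or the NF-κB site. The series lists GRCm39 as its build, so these coordinates were not joined to the counts.
Nr4a1, chr15:101266596-101266895, plus strand: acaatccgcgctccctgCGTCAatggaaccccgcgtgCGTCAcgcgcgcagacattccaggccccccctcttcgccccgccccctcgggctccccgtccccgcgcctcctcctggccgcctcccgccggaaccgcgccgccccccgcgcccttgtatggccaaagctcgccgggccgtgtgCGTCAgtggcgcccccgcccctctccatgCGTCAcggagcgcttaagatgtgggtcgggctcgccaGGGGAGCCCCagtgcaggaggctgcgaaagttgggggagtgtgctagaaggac
Nr4a2, chr2:57123954-57124253, minus strand: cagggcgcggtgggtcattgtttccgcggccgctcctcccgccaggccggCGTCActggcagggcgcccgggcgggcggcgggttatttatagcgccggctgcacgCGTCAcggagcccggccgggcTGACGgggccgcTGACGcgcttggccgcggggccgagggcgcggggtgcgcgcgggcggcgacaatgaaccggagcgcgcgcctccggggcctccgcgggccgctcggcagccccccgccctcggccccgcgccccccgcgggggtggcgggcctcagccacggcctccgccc
Btg2, chr1:134079106-134079405, minus strand: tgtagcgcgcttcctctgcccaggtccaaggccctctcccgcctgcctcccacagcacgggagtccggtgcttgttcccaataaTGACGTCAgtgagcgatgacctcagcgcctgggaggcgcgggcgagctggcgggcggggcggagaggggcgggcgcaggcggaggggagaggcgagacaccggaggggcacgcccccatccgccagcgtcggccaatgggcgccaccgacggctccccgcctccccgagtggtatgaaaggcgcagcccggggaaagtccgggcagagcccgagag
Srf, chr17:46556113-46556412, minus strand: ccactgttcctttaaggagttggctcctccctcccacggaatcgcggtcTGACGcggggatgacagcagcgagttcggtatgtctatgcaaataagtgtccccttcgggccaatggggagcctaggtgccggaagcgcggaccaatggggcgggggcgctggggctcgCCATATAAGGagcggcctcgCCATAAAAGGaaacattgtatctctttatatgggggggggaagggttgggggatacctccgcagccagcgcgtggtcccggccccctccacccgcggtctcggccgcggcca
Zfp36, chr7:28379267-28379296, minus strand: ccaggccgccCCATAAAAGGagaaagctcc

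The CRE core was found 4 times in the window of each Nr4a gene, all on the reverse strand in Nr4a1, evenly on both strands in Nr4a2 and mostly on the forward strand in Nr4a3. It was present in 5 of the 8 windows, against 20.8% of all 32851 promoter windows and 28.5% of the 15575 windows of tested genes. Those 5 windows were between 63.3% and 81.7% G and C, where the median of all windows was 52.7%. The shares were not matched for base composition. The palindromic CRE stood only in Btg2 among the 8, and 1.79% of all windows and 2.74% of the windows of tested genes held it. Srf had 2 CArG boxes and Zfp36 had 1, with 1.63% of all windows holding any. The NF-κB site was matched in Nr4a1 and Ier3 (8.46% of all windows). None of the 8 windows held the AP-1 site TGACTCA, the EGR site GCGTGGGCG or the NR4A monomer site AAAGGTCA, which 5.2%, 0.612% and 1.51% of all windows held. These are matches of letters and were not tested as binding sites.

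In the longest coding transcripts of GENCODE M21, the nonamer TTATTTATT, the core of the AU-rich elements that tristetraprolin binds, was found in the 3′ UTRs of Zfp36 and Srf. Both sites are shown with the nonamer in capitals, because Zfp36 encodes the binding protein itself.
Zfp36: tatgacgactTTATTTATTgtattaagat
Srf: acggcaccacTTATTTATTgttgcctttt
Within the last 300 bases of the 3′ UTR, Zfp36 was the only member with the nonamer, which 2.34% of 11429 tested genes carried there. Nr4a1 and Zfp36 each had 3 copies of the pentamer ATTTA in that stretch, and 5.35% of tested genes had 3 or more, counting overlapping copies. Over whole 3′ UTRs, Nr4a3, Ier3 and Btg2 had 5 copies each, and Nr4a1, Nr4a2 and Zfp36 had 3 each. Ier5 had 2, Srf 1 and Ier2 0. The Srf nonamer lies 711 bases from the transcript end. No share of all tested genes was computed for whole 3′ UTRs.

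DMSO at day 4 was compared with day 0 to ask how the genes stood after differentiation without the drug. Of the 9 genes, 5 rose (Nr4a1, Nr4a3, Ier2, Ier5, Btg2) and 2 fell (Nr4a2, Srf), and no difference was called for Ier3 or Zfp36. Those 7 calls make 77.8% of the 9 genes, beside 66.3% of all tested genes called in either direction. Under a stricter filter that asks for a mean of 1 CPM, 6 of the 8 genes left (75%) were called, beside 78.8% of all genes. The shares of all tested genes set beside the gene lists below use the main filter and were not matched for level. Without day 0 replicate 1 the share of the 9 genes was below that of all tested genes, with 4 called (44.4%) beside 57.7%. By direction, 33.8% of all tested genes rose and 32.6% fell. A call is an adjusted p-value under 0.05 in edgeR's quasi-likelihood test with Benjamini-Hochberg adjustment across the 17433 genes. The median log2 fold change of the 9 genes was 0.15, and that of all tested genes was 0.023. With 4-PBA at day 4 against the same day 0 libraries, 8 of the 9 were called, 6 higher and 2 lower, where 65.6% of all tested genes were called, 33.2% higher and 32.4% lower. The 7 calls made with DMSO were all made again with 4-PBA, and Zfp36 was added. The comparisons share the day 0 libraries, so they are not independent of each other. Both sets of day 4 libraries lay wholly outside the day 0 range for 8 of the 9 genes, 6 above and 2 below. Such separation was common: 81.9% of all tested genes showed it with DMSO (42.0% above, 39.9% below) and 81.8% with 4-PBA (41.7% above, 40.1% below).

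**Figure D1:**
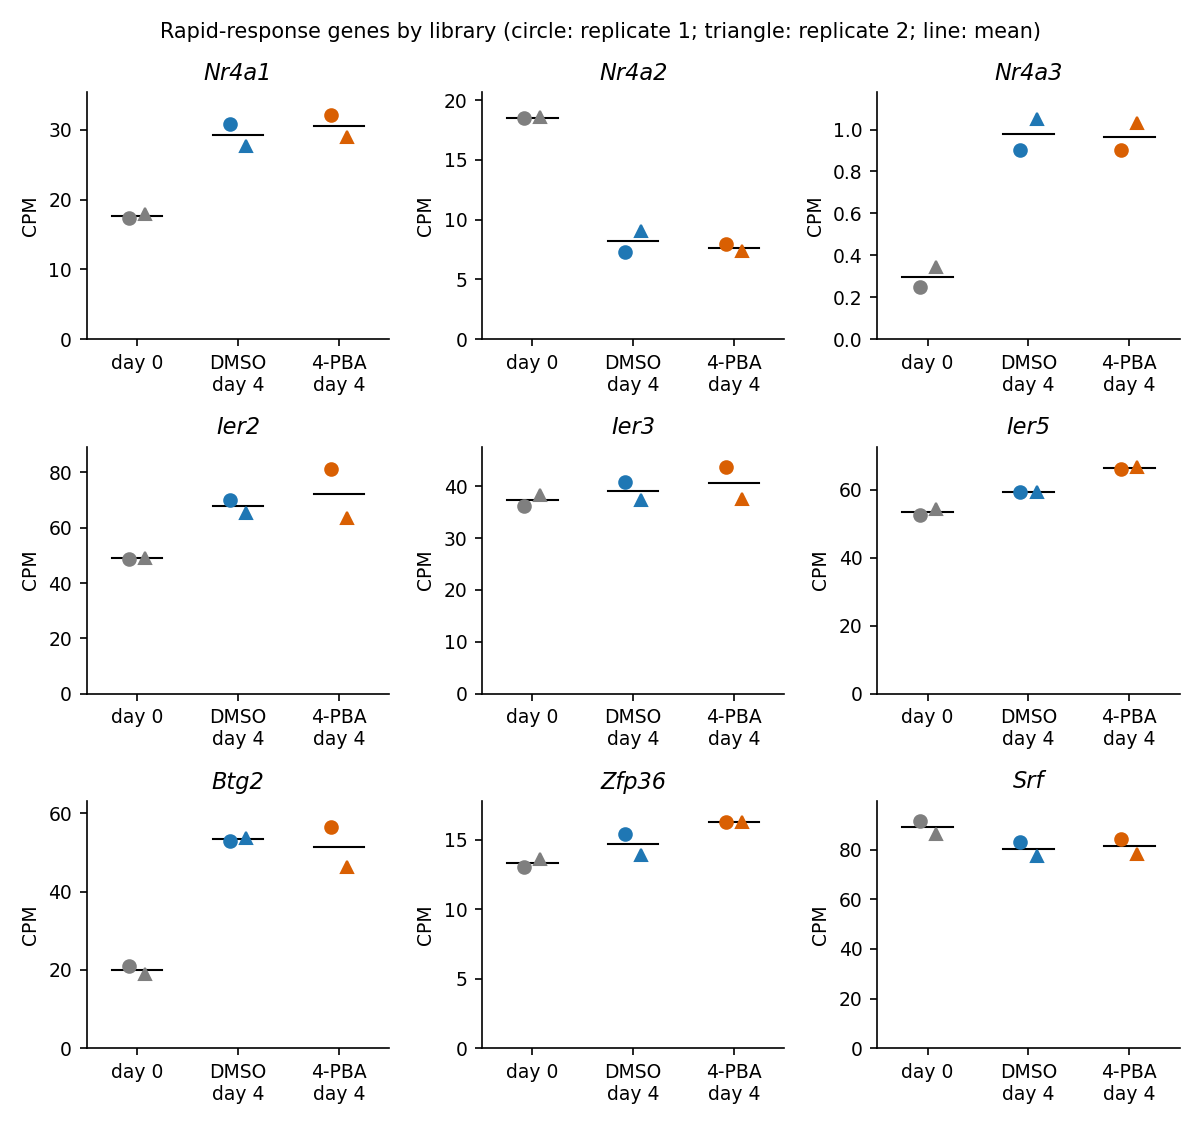
Expression of each gene (CPM, linear axis from 0) in the 2 libraries of each group, with the group mean as a line. At day 4 Nr4a1, Nr4a3, Ier2, Ier5, Btg2 and Zfp36 lay above both day 0 libraries in every library, Nr4a2 and Srf lay below, and Ier3 overlapped.

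The Nr4a family split. Nr4a1 (Nur77) had 17.39 and 17.98 CPM at day 0, then 30.8 and 27.7 CPM in the DMSO libraries and 32.07 and 29.04 CPM in the 4-PBA libraries. Every day 4 library was above both day 0 libraries, and the DMSO and 4-PBA values interleaved. The rise was 1.65-fold with DMSO (log2 fold change 0.72, SE 0.069, edgeR adjusted p = 2.03e-11) and 1.73-fold with 4-PBA (0.79, SE 0.0692, adjusted p = 2.71e-12).

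Nr4a2 (Nurr1) went the other way. It held 18.5 and 18.6 CPM at day 0, 7.29 and 9.07 with DMSO, alongside 7.94 and 7.36 with 4-PBA. The 4 day 4 libraries lay below both day 0 libraries with no overlap. The fall was 2.26-fold with DMSO (log2 fold change -1.18, SE 0.0951, edgeR adjusted p = 3.41e-13) and 2.42-fold with 4-PBA (-1.28, SE 0.0968, adjusted p = 6.47e-14).

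Nr4a3 (Nor1) was the scarcest of the 9 genes, with 12 and 24 counts in the day 0 libraries, 57 and 78 with DMSO, alongside 56 and 64 with 4-PBA. As CPM these were 0.247 and 0.342, 0.903 and 1.05, and 0.902 and 1.03. All day 4 values were above all day 0 values. The log2 fold change was 1.70 with DMSO (SE 0.362, edgeR adjusted p = 9.83e-05) and 1.68 with 4-PBA (SE 0.365, adjusted p = 1.29e-04). These errors were the widest among the 9 genes, and Nr4a3 did not pass a stricter filter of a mean of 1 CPM.

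Divided by transcript length, the Nr4a family summed to between 12.04 and 12.31 CPM per kb at day 0 and to between 13.6 and 14.9 at day 4. Within that sum the composition moved more than the total. Nr4a2 made up 43.1% and 42.3% of the family at day 0, 14.3% and 18.7% with DMSO, alongside 14.9% and 15.2% with 4-PBA. Nr4a1 took 56.6% and 57.2% at day 0 and between 79.9% and 84.6% at day 4, and Nr4a3 never exceeded 1.35%. The ratio of Nr4a1 to Nr4a2 per kb was 1.31 and 1.35 at day 0, 5.90 and 4.27 with DMSO, alongside 5.64 and 5.51 with 4-PBA. Transcript lengths were those of the longest coding transcript, which the cells need not use.

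**Figure D2:**
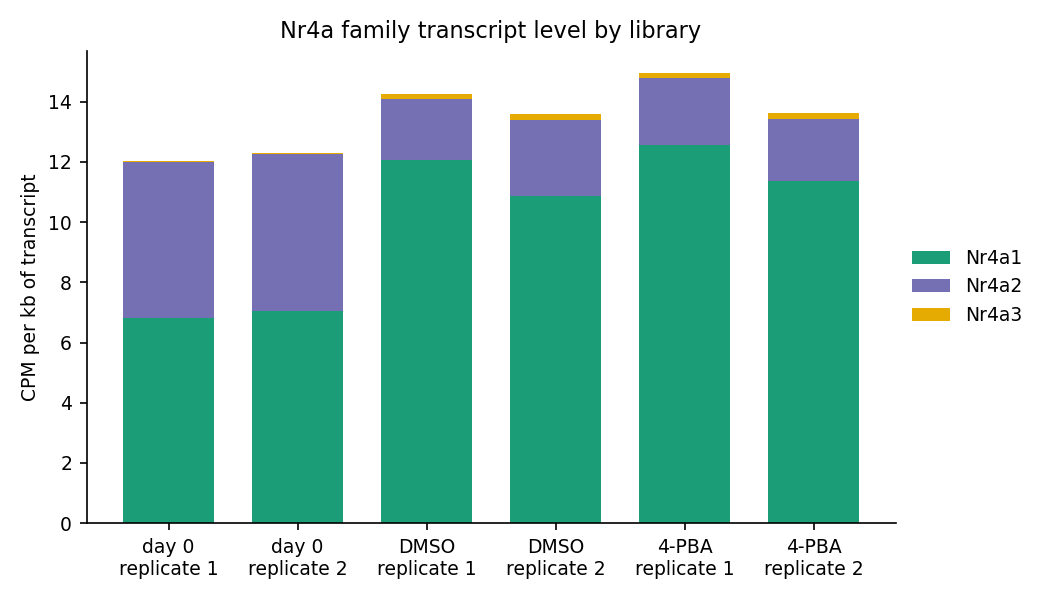
Transcript level of Nr4a1, Nr4a2 and Nr4a3, in CPM per kb of transcript (stacked bars from 0), in each of the 6 libraries. The Nr4a2 segment is 5.18 and 5.21 CPM per kb at day 0 and between 2.04 and 2.54 at day 4, and the Nr4a3 segment is at most 0.184.

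Retinoid X receptors pair with Nr4a1 and Nr4a2 as heterodimers. Of the 3 Rxr genes, Rxra rose from 37.7 ± 1.68 to 52.3 ± 2.15 CPM with DMSO (SD, n = 2; log2 fold change 0.47, SE 0.0507, edgeR adjusted p = 3.70e-10). Rxrb was not called (-0.077, adjusted p = 0.223), and Rxrg was too low to test. CREB and its coactivators are known activators of Nr4a transcription. Of 10 genes of that pathway, 3 rose and 5 fell with DMSO (80% called, beside 66.3% of all tested genes). The list holds kinase and phosphodiesterase genes as well as activators, so these counts give no direction for the pathway. Atf1 fell (-0.48, SE 0.0434), as did the phosphodiesterase gene Pde4d (-0.26, SE 0.0317), the most abundant of the 10 as CPM. Creb1 fell too (-0.33, SE 0.047), while the coactivator gene Crtc1 rose (0.38, SE 0.0533). Only 1 of the 10 rose and 6 fell with scaling by library size only or without DMSO replicate 1, and 1 rose and 5 fell by the DESeq2 Wald test or without day 0 replicate 1. With 4-PBA the counts against day 0 were also 3 and 5, and 1 and 5 without 4-PBA replicate 2.

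After Nr4a3, Btg2 had the largest log2 fold change among the 9 genes with either treatment. It stood at 20.86 and 18.99 CPM at day 0, at 53.0 and 53.8 with DMSO, and at 56.6 and 46.4 with 4-PBA. All day 4 libraries were above both day 0 libraries, and the DMSO values fell between the 4-PBA values. The rise was 2.69-fold with DMSO (log2 fold change 1.43, SE 0.0851, edgeR adjusted p = 9.45e-09) and 2.59-fold with 4-PBA (1.37, SE 0.0856, adjusted p = 1.53e-08).

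The relatives of Btg2 did not all move with it. Tob1, an antiproliferative gene of the same family, rose with DMSO (0.64, SE 0.0471, edgeR adjusted p = 2.95e-14), whereas Btg1 (-0.29, SE 0.034), Btg3 (-0.40, SE 0.0562) and Tob2 (-0.70, SE 0.0506) fell. Btg4, a germ-cell gene, was too low to test. Per kb of transcript, Btg2 went from 8.42% of the summed level of the 5 tested Btg and Tob genes at day 0 to 20.5% with DMSO and 20.8% with 4-PBA. Btg3 and Tob2 share exonic sequence with antisense genes (Cxadr and Gm49476) in GENCODE M21, and whether counting used strand is not given in the sources used here.

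Zfp36 held 13.0 and 13.6 CPM at day 0, 15.5 and 13.9 with DMSO, alongside 16.3 and 16.3 with 4-PBA. The order was day 0, DMSO, 4-PBA with no overlap between neighbouring groups, but the steps were small. It was called against day 0 with 4-PBA (log2 fold change 0.29, SE 0.081, edgeR adjusted p = 0.00233) and not with DMSO (0.14, SE 0.0811, adjusted p = 0.142). The difference between the drug and DMSO was itself not called (0.15, 95% interval -0.011 to 0.31, edgeR adjusted p = 0.345). Its exons also overlap those of the antisense gene Gm44710.

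Of its 3 tested paralogs 1 rose, 1 fell and 1 was not called. Zfp36l1 rose from 32.7 and 33.8 CPM at day 0 to 115.6 and 123 with DMSO (log2 fold change 1.84, SE 0.0433, edgeR adjusted p = 1.07e-28). Zfp36l2 fell from 366 and 363 CPM to 203 and 204 (-0.84, SE 0.0311, adjusted p = 7.13e-23). Both encode AU-rich element binding proteins like tristetraprolin. Zfp36l3, at no more than 0.470 CPM in any library, was not called (-0.69, SE 0.551, edgeR adjusted p = 0.280). Per kb of transcript and leaving out Zfp36l3, Zfp36l2 made up 86.7% of the summed level of Zfp36, Zfp36l1 and Zfp36l2 at day 0 and 56.1% with DMSO, Zfp36l1 went from 9.33% to 38.8%, and Zfp36 was the least abundant of these at 4.01% and 5.12%. Zfp36l1 and Zfp36l2 have an antisense gene over part of their exons (Gm26669 and AC132455.1).

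**Figure D3:**
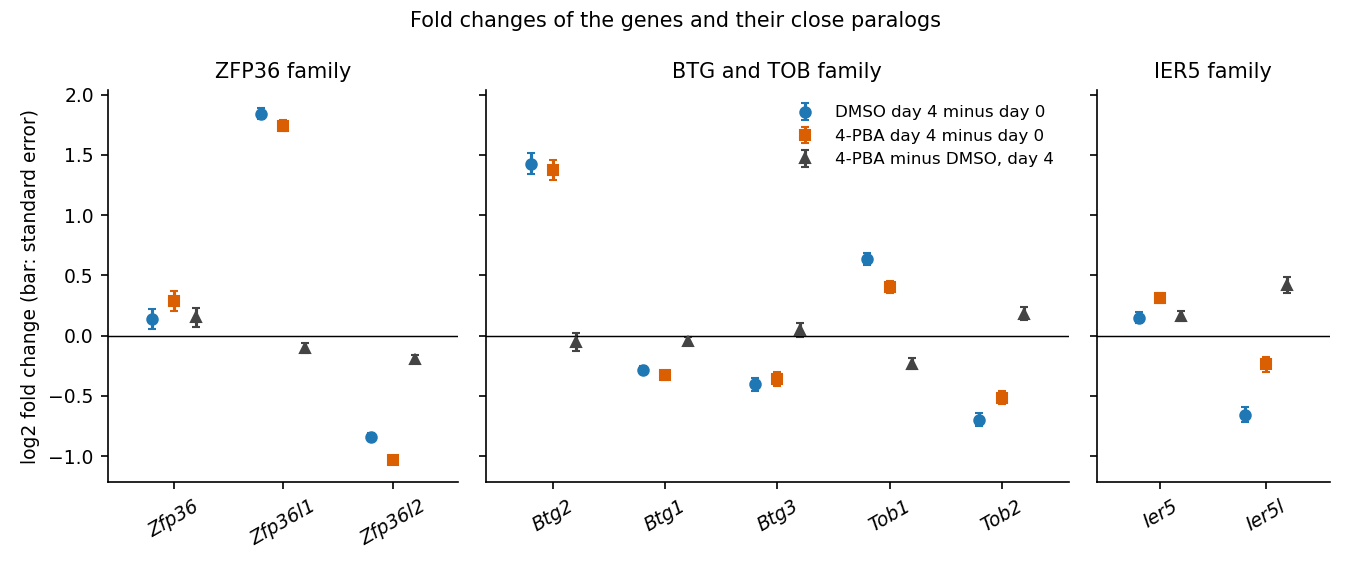
Log2 fold change (bars: standard error) of Zfp36, Btg2 and Ier5 and of their close paralogs in each of the 3 comparisons. Zfp36l1 and Zfp36l2 lie at 1.84 and -0.84 with DMSO against day 0, and in that comparison Btg2 and Tob1 are the only Btg and Tob genes shown above 0.

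Tristetraprolin and Btg2 act through the CCR4-NOT complex. Of its 12 listed genes 2 rose and 5 fell with DMSO, with the same counts with 4-PBA. That is 58.3% called, beside 66.3% of all tested genes with DMSO and 65.6% with 4-PBA. With DMSO Cnot9 fell (-1.10, SE 0.0437) as did Cnot6 (-0.45, SE 0.0348) and Cnot1, the scaffold (-0.36, SE 0.0333), while Cnot6l, a deadenylase, rose (0.93, SE 0.0368). Exons of Cnot9 and Cnot1 overlap those of antisense genes (Usp37 and 4930513N10Rik). Tnks1bp1, the most abundant of the list as CPM, was not called (0.039, edgeR adjusted p = 0.295). Of 12 genes whose AU-rich mRNAs are known to be bound by ZFP36 proteins, 8 were tested. Of these 4 rose and 3 fell with DMSO (87.5% called, beside 66.3% of all tested genes). Lif rose (1.43, SE 0.0942), while Ccl2 (-1.39, SE 0.0889) and Cxcl1 (-1.86, SE 0.192) fell. Il6 rose too (2.02, SE 0.27), but at a low level. It had 16 and 47 counts at day 0 (0.329 and 0.669 CPM) and 2.08 and 2.16 CPM with DMSO. Vegfa, the most abundant as CPM, rose slightly with DMSO (0.096, SE 0.0329, adjusted p = 0.0103) and fell with 4-PBA against day 0 (-0.080, SE 0.033, adjusted p = 0.0334).

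Srf, with Ier3 and Ier2, was among the most abundant of the 9 genes per kb at day 0. It stood at 91.6 and 86.5 CPM at day 0, at 83.2 and 77.6 with DMSO, and at 84.5 and 78.5 with 4-PBA. Every day 4 value was below both day 0 values, by a small margin. The fall was 0.15 on the log2 scale with DMSO (log2 fold change -0.15, SE 0.0442, edgeR adjusted p = 0.00427) and 0.13 with 4-PBA (-0.13, SE 0.0444, adjusted p = 0.0132). Without day 0 replicate 1 neither change was called (adjusted p = 0.0921 and 0.178), nor was the DMSO change without DMSO replicate 2 (0.0624) or the 4-PBA change without 4-PBA replicate 2 (0.260).

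Of the 6 genes for cofactors of Srf, 3 rose and 2 fell with DMSO (83.3% called, beside 66.3% of all tested genes). The coactivator gene Mrtfa (-0.35, SE 0.0351) and the repressive ternary complex factor gene Elk3 (-0.79, SE 0.0607) fell, and Mrtfb (0.34, SE 0.0441), Elk1 (0.41, SE 0.0516) and Elk4 (0.30, SE 0.0369) rose. Exons of Mrtfa, Elk3, Mrtfb and Elk4 overlap those of antisense genes (Sgsm3, Cdk17, Gm15738 and Mfsd4a). Exons of Elk1 and Elk4 overlap same-strand genes (Uxt and Gm29103). Myocd, the coactivator of cardiac and smooth muscle, stood at 0.290 CPM at day 0 and was not called. Of 25 cytoskeletal and contractile genes known as Srf targets, 20 rose and 4 fell (96% called, beside the same 66.3%). Acta1 (5.50, SE 0.0354), Actc1 (6.46, SE 0.0468) and Tpm2 (2.09, SE 0.0316) had the smallest adjusted p-values, all 3 being genes of the muscle contractile apparatus. The 4 that fell were Actb, Actg1, Tagln2 and Tpm4, and Actg1, the most abundant as CPM, fell by 0.46 on the log2 scale. Actg1 and Tpm4 also share exonic sequence with other genes (Gm23419 and Mir6935 on the same strand, Gm26586 antisense). Many of these targets are also muscle differentiation genes.

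The 3 Ier genes differed among themselves. Ier2 held 48.8 and 49.1 CPM at day 0, 70.0 and 65.5 with DMSO, alongside 81.1 and 63.4 with 4-PBA. All day 4 values were higher than both day 0 values, but the 4-PBA libraries lay on either side of the DMSO libraries. The rise was 1.38-fold with DMSO (log2 fold change 0.47, SE 0.141, edgeR adjusted p = 0.0498) and 1.48-fold with 4-PBA (0.56, SE 0.141, adjusted p = 0.0306). Both calls were near the threshold: the DMSO call was lost under 7 of 14 alternatives (adjusted p up to 0.240) and the 4-PBA call under 5 of 14 (up to 0.143).

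Ier3 stood at 36.2 and 38.3 CPM at day 0, at 40.9 and 37.3 with DMSO, and at 43.7 and 37.4 with 4-PBA. The 3 groups overlapped. The log2 fold change against day 0 was 0.064 with DMSO (95% interval -0.072 to 0.20, edgeR adjusted p = 0.408) and 0.12 with 4-PBA (-0.017 to 0.26, adjusted p = 0.116). Without 4-PBA replicate 2 the latter was 0.23 and called (adjusted p = 0.00534), and it was also called without DMSO replicate 1 or 2 (0.0467 and 0.0487).

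Ier5 held 52.6 and 54.2 CPM at day 0, 59.3 and 59.2 with DMSO, alongside 66.0 and 66.6 with 4-PBA. The groups stood in that order with no overlap. Against day 0 the log2 fold change was 0.15 with DMSO (SE 0.0447, edgeR adjusted p = 0.00369) and 0.31 with 4-PBA (SE 0.0447, adjusted p = 1.66e-07). Without day 0 replicate 1 the DMSO change was not called (adjusted p = 0.0582).

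Ordered by mean level per kb, the genes at day 0 ran Srf (34.0 ± 1.39 CPM per kb, SD, n = 2), Ier3 (33.0 ± 1.33), Ier2 (32.1 ± 0.136), Ier5 (16.3 ± 0.344), Btg2 (7.26 ± 0.484), Nr4a1 (6.93 ± 0.163), Nr4a2 (5.20 ± 0.0181), Zfp36 (4.78 ± 0.145) and Nr4a3 (0.0515 ± 0.0117). The library values of Srf overlapped those of Ier3, those of Ier3 overlapped those of Ier2, and those of Btg2 overlapped those of Nr4a1, so these neighbours cannot be ranked. With DMSO the order opened with Ier2 (44.5 ± 2.11), Ier3 (34.5 ± 2.26) and Srf (30.7 ± 1.52), and Btg2 (19.5 ± 0.203) stood above Ier5 (18.1 ± 0.0215). With 4-PBA the values of Btg2 (20.6 and 16.9 CPM per kb) spanned those of Ier5 (20.2 and 20.3).

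Setting 4-PBA against DMSO, both at day 4, tests the drug itself. Of the 9 genes, only Ier5 was called, higher with 4-PBA at 66.3 ± 0.378 against 59.3 ± 0.0704 CPM (SD, n = 2), a 1.12-fold difference (log2 fold change 0.16, SE 0.044, edgeR adjusted p = 0.0238). That is 11.1% of the 9 genes, beside 4.90% of all tested genes called (2.13% higher, 2.78% lower). Ier5 and Zfp36 were the 2 genes whose 4-PBA libraries did not overlap the DMSO libraries, a separation that 45.5% of all tested genes showed (23.0% higher, 22.5% lower). The call of Ier5 was lost without either 4-PBA library: the log2 fold change was then 0.17 and 0.16, with edgeR adjusted p-values of 0.143 and 0.196. Ier5 and its paralog Ier5l were both higher with the drug. Ier5l stood at 34.6 and 32.5 CPM at day 0, 22.1 and 20.6 in the DMSO group and 27.7 and 29.2 in the 4-PBA group, so it fell against day 0 (-0.65, SE 0.0635) and was higher with 4-PBA than with DMSO (0.42, SE 0.0638, edgeR adjusted p = 5.14e-05).

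For the other 8 genes the interval of the difference is the useful value. The 95% intervals of the log2 fold change of 4-PBA against DMSO ran from -0.069 to 0.20 for Nr4a1, from -0.31 to 0.11 for Nr4a2, from -0.079 to 0.19 for Ier3, from -0.22 to 0.12 for Btg2 and from -0.070 to 0.11 for Srf. They were wider for Ier2 (-0.30 to 0.49) and Nr4a3 (-0.65 to 0.61). For Zfp36 the interval is given above. None of these 8 differences was called, and leaving out 1 day 4 library changed the sign for 7 of them, Zfp36 excepted: Btg2 was at 0.084 without 4-PBA replicate 2, Nr4a2 at 0.071 without DMSO replicate 2 and Ier2 at -0.096 without 4-PBA replicate 1. Ier2 was called higher, at 0.26 (edgeR adjusted p = 0.00773), when 4-PBA replicate 2 was left out.

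**Figure D4:**
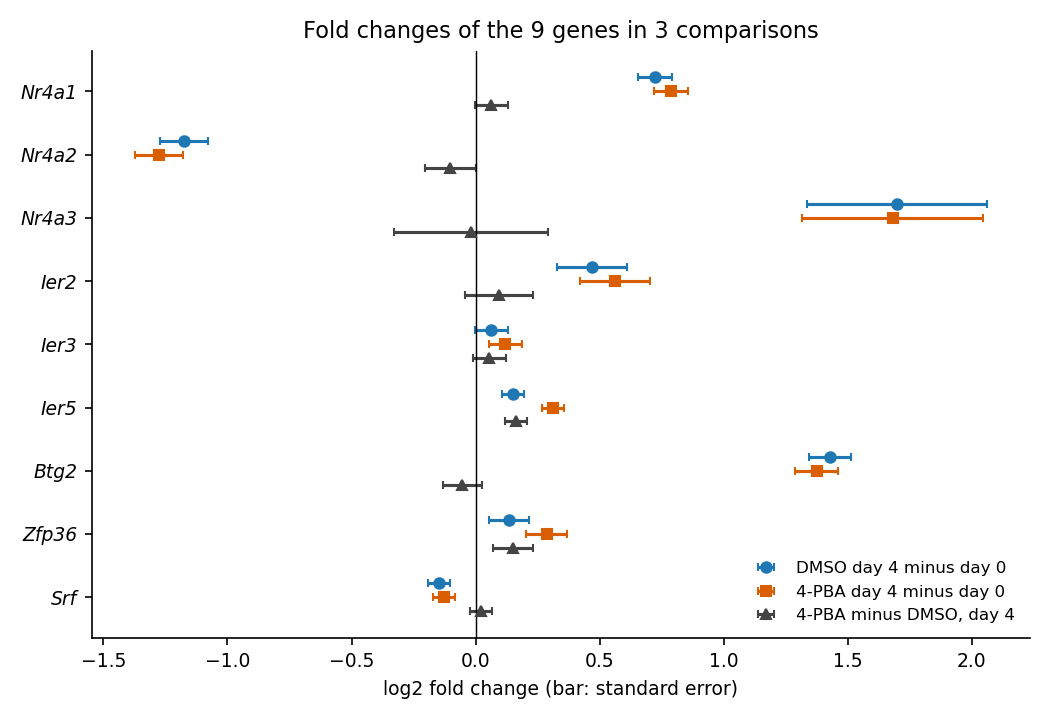
Log2 fold change of each gene (bars: standard error) for DMSO against day 0 (circles), 4-PBA against day 0 (squares) and 4-PBA against DMSO (triangles). Circles and squares lie together, from -1.28 for Nr4a2 to 1.70 for Nr4a3, and the triangles lie between -0.10 and 0.16.

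Replicate libraries of a group also differed in these genes. Of the 9 genes, 6 were higher in replicate 1 than in replicate 2 with DMSO and 6 with 4-PBA, but not the same 6. The median log2 ratios were 0.097 and 0.11, and at day 0 2 genes were higher (median -0.043). Nr4a1, Ier2, Ier3 and Srf were higher in replicate 1 with both treatments, and Ier5, Zfp36, Btg2 and Nr4a2 with only 1. With 4-PBA the log2 ratio was 0.36 for Ier2, 0.29 for Btg2, 0.22 for Ier3 and 0.14 for Nr4a1, while Zfp36 and Ier5 were at -0.0054 and -0.012. With DMSO it was 0.097 for Ier2, -0.021 for Btg2, 0.13 for Ier3, 0.15 for Nr4a1 and 0.15 for Zfp36, and Nr4a2 had the widest ratio at -0.32. A ratio beyond 0.25 in either direction was seen for 1 of the 9 genes at day 0, 1 with DMSO and 2 with 4-PBA. These are 11.1%, 11.1% and 22.2%, beside 25.2%, 24.7% and 24.6% of all tested genes. Of 45 other rapid-response genes tested, 28 (62.2%) were higher in replicate 1 at day 0, 28 with DMSO and 35 (77.8%) with 4-PBA, beside 45.3%, 51.5% and 50.3% of all tested genes. Ratios beyond 0.25 were seen in 0, 9 (20%) and 10 (22.2%) of the 45, beside the same 25.2%, 24.7% and 24.6% of all tested genes. Only 10681 of the 17433 tested genes had a mean of at least 5 CPM. The shares of all tested genes therefore include many scarcer genes and were not matched for level. The difference between groups in these counts was not tested. Fos stood at 24.4 and 15.0 CPM with 4-PBA, against 11.9 and 11.7 with DMSO and 2.53 and 2.32 at day 0. Egr1 stood at 347 and 238 CPM with 4-PBA and 286 and 274 with DMSO. The part of these library differences in the values of the 9 genes was not tested.

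**Figure D5:**
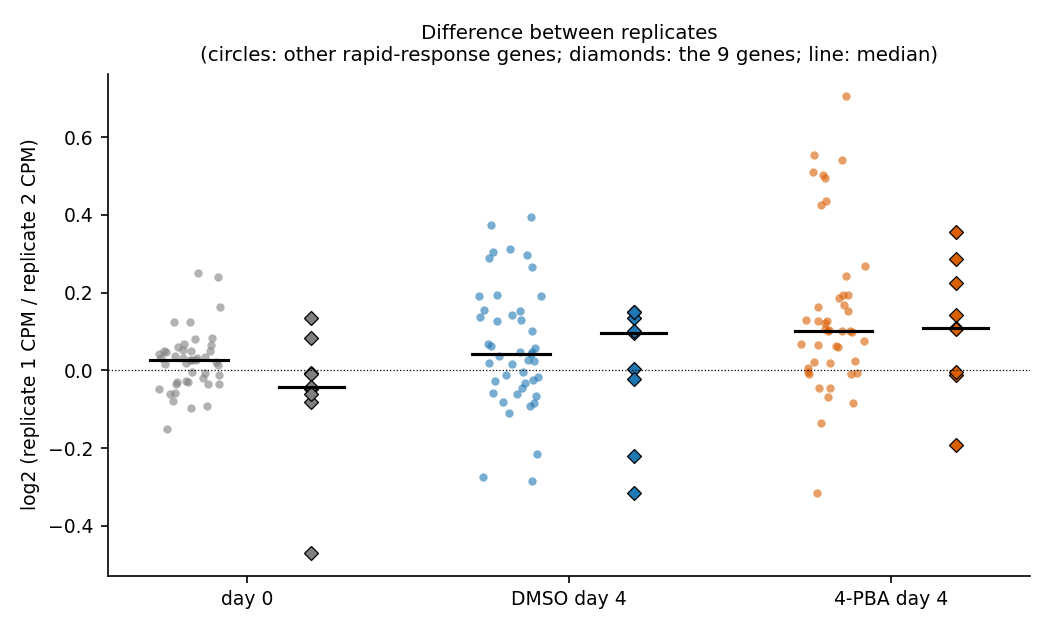
Log2 ratio of replicate 1 to replicate 2 in each group for the 9 genes (diamonds) and for 45 other rapid-response genes (circles), with medians as lines. The medians of the 9 genes are 0.097 with DMSO and 0.11 with 4-PBA, those of the other genes are 0.042 and 0.10, and the highest circle, Fos, is at 0.70.

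Of 46 other rapid-response genes listed, 45 were tested. With DMSO against day 0, 27 rose and 13 fell (88.9% called, beside 66.3% of all tested genes), with a median log2 fold change of 0.48. Klf4 (1.26, SE 0.0334) and the kinase gene Sik1 (1.37, SE 0.0399) rose, and the MAP kinase phosphatase gene Dusp4 fell (-1.22, SE 0.038). Rhob, a small GTPase gene and the most abundant as CPM, rose by little (0.16, SE 0.0285). Fos (2.29, SE 0.35, edgeR adjusted p = 0.00678) and Egr1 (1.251, SE 0.223, adjusted p = 0.0158) rose, but neither call held when any 1 of the 4 libraries compared was left out. Between 4-PBA and DMSO, 1 of the 45 rose and 11 fell (26.7% called, beside 4.90% of all tested genes). Under the stricter filter of a mean of 1 CPM, which leaves more abundant genes, the share of all tested genes was 7.67%. Gadd45g, a stress sensor gene, was higher, at 137 and 141 CPM against 101 and 105 (0.44, SE 0.0375, edgeR adjusted p = 1.37e-09). Dusp4, at 71.1 and 68.0 against 108 and 99.1 CPM (-0.57, SE 0.0393, adjusted p = 2.48e-11), and Klf6 (-0.26, SE 0.0334) were lower. Among the lists around the 9 genes, 4 of 8 tested paralogs (50%) and 2 of 6 Srf cofactors (33.3%) were called between 4-PBA and DMSO. So were 8 of 25 Srf targets (32%), 4 higher and 4 lower, all beside the same 4.90%. Without 4-PBA replicate 2 the split of the 45 was 4 higher and 6 lower. Elk4 (-0.14, SE 0.0366) and Mrtfb (-0.15, SE 0.0436) were the cofactors, Actc1 (-0.22), Myl9 (0.27) and Tpm1 (0.12) led the targets, and Zfp36l2 (-0.19), Tob1 (-0.23), Tob2 (0.18) and Ier5l were the paralogs. None of the 12 CCR4-NOT genes was called by edgeR or by DESeq2, and 2 had an unadjusted p-value under 0.05. Likewise none of the 10 CREB pathway genes (1 with an unadjusted p-value under 0.05) and neither tested Rxr gene (0 with one) was called by edgeR or DESeq2. Of the 8 AU-rich genes 1 was called, Vegfa (-0.18), and 3 were without DMSO replicate 2. No Srf cofactor was called without 4-PBA replicate 1 or without 4-PBA replicate 2, and 1 was without day 0 replicate 1 or without DMSO replicate 2. Without 4-PBA replicate 1 or 2 the called Srf targets numbered 2 and 3, and without DMSO replicate 1 they numbered 13.

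Across the 6 libraries, the genes whose log2 CPM correlated most highly with each of the 9 were found among 10673 other genes with a mean of at least 5 CPM. These correlations describe 3 groups of libraries and carry no test. They ignore the size of a change: with DMSO Tnks rose by 0.15 on the log2 scale and Nr4a1 by 0.72, and Pdcd6 fell by 0.14 and Nr4a2 by 1.18. The closest were Ttc23 and Tnks for Nr4a1, Pdcd6 and Wdr74 for Nr4a2, Fam219a and Sytl1 for Nr4a3, Itpkc and Dctn3 for Ier2, Nacc2 and Als2cl for Btg2, H2-Q7 and Ctbp1 for Zfp36, and Lyrm9 and Spg11 for Srf, with Pearson's r between 0.981 and 0.9999. For Ier5 they were Pmp22 (r = 0.998) and Inhbb (r = 0.995), which rose in the same order: Pmp22 had 53.4 and 54.6 CPM in the day 0 group, 68.4 and 67.5 in the DMSO group and 85.4 and 87.3 in the 4-PBA group. Ier3 had the weakest match, with Ube3c (0.959) and Jun (0.954). Among the 9 genes, Nr4a1 and Btg2 had the highest correlation (r = 0.981) and Nr4a1 and Nr4a2 the most negative (r = -0.984).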

How the data were processed

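The deposited values are raw counts per gene symbol, 1 column per library, per the labels. The build named in the submitters' processing notes is GRCm39. Aligner, counting tool, annotation and strand setting are not given in the sources used here. The counts went through edgeR 4.0.16 (R 4.3.3): filterByExpr, TMM, 1 mean per group over all 6 libraries, robust glmQLFit with 3 residual degrees of freedom, and glmQLFTest adjusted over 17433 genes. Standard errors are the log2 fold change divided by the square root of F, and 95% intervals use the total degrees of freedom of each gene. With 2 libraries against 2, relabelling gives no two-sided p below 0.333, so the tests depend on sharing the spread between genes. Alternatives used DESeq2 1.42.0, limma 3.58.1 (voom), other scalings and filters, the 4 compared libraries, a replicate block, and each library left out. The fit was tested on simulated data for 4-PBA against DMSO, where it recovered 145 of 200 changed genes and made 5 false calls. Level per kb used the longest coding transcript of GENCODE M21. Plots used matplotlib 3.10.9 (Python 3.11.15).

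The 9 genes and the lists were chosen with earlier results of these data known. Named genes were the 9 genes, Fos, Egr1, close paralogs, and in each list the 3 smallest adjusted p-values and the most abundant gene. By the same rule the 2 most highly correlated genes were named for each of the 9 genes. Il6, Myocd, Actb, Tagln2, Tpm4, Zfp36l3, Myod1, Myf5, Des, Pax7, Ptprc, Cd68 and Fabp4 fall outside that rule and were named after their values were seen. The NR4A monomer site was added after seeing the data.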

Additional observations from a re-analysis of the deposited data

How the results depend on the processing

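Of the 9 genes, between 4 and 7 were called for DMSO against day 0 when 1 library was left out, the lowest without day 0 replicate 1 (44.4% of the 9 genes, beside 57.7% of all 18332 genes then tested) and 5 without DMSO replicate 2 (55.6% beside 59.1%). The range was 6 to 8 for 4-PBA against day 0, where the share of the 9 genes stayed above that of all tested genes with any 1 library left out. Between 4-PBA and DMSO the number lay between 0 and 1 when 1 library was left out, being 0 without 4-PBA replicate 1, where Ier5 was not called. Without 4-PBA replicate 2 the 1 call was Ier2. At an adjusted p under 0.01 none of the 9 was called by edgeR between 4-PBA and DMSO, and Ier5 alone had an unadjusted p under 0.05. At the main threshold of 0.05 the DESeq2 Wald test called 1, again Ier5. Over all tested genes that comparison gave 855 calls, 424 at an adjusted p under 0.01, and between 295 and 1194 with 1 library left out (341 without 4-PBA replicate 1 and 295 without 4-PBA replicate 2). With library size only the split was 461 higher and 435 lower, against 371 and 484. The 45 other rapid-response genes gave 12 calls there, 19 with no filter beyond 1 count, 18 without DMSO replicate 2 and 6 at an adjusted p under 0.01. Without 4-PBA replicate 1 the log2 fold change of Egr1 between 4-PBA and DMSO was -0.23, and without 4-PBA replicate 2 it was 0.31. The cause was not tested.

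Labels share replicate numbers across groups, but deviations of same-numbered libraries correlated at 0.0459, -0.0851 and -0.0877 over 10681 genes, so the numbers were not taken as pairs. With the replicate block, 7, 8 and 1 of the 9 genes and 11403, 11309 and 768 of all genes were called. Under the stricter filter 6, 7 and 1 of the 8 genes left were called (75%, 87.5% and 12.5%). The shares of all genes were then 78.8%, 78.5% and 7.67%, so the share of the 8 with DMSO was the lower one. No direction of the 9 genes against day 0 changed under the alternatives run, apart from Ier3 with DMSO (-0.0020 without DMSO replicate 1). Nr4a3 gave no value under the stricter filter, which removed it, and its 12 to 78 counts went with the widest errors among the 9 genes.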
